A study of Mus musculus with 24 samples.

Results

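The 8 genes described here are the AP-1 family members Fos, Fosb, Fosl2, Jun, Junb, Jund and Batf together with Atf3, out of 18193 genes with a probe set on the array. They were taken by name, and where a gene had several probe sets the one with the higher mean was used, while the other probe sets of Fosl2, Jun and Jund served as a check. All 8 passed the filter on dim genes and were tested among 11208 genes. The 24 Affymetrix arrays held RNA of spleen B cells of female C57BL/6 mice, in 8 groups of 3 replicates. Naive follicular B cells (B220+AA4.1-CD21intCD23+) and naive marginal zone B cells (CD21highCD23low), which lie at the border of the follicle, came from mice of 8 to 10 weeks. Sorted follicular B cells were also stimulated for 6 h with an anti-IgM F(ab')2 fragment at 10 μg/ml and an anti-CD40 antibody at 2 μg/ml, which mimic antigen and the help of T cells. The other groups came from mice immunized at 8 to 10 weeks with a hapten, NP, on a carrier protein in alum. From these mice hapten-binding cells were sorted as IgG1+CD38+PNA- memory B cells and IgG1+CD38dullPNA+ germinal center B cells, each at day 7 and at day 40, and as CD138+Igλ+ plasma cells at day 7. Naive cells and cells of immunized mice were enriched with different antibody panels before the sort, so panel and immunization cannot be told apart. No group of follicular cells cultured for 6 h without antibodies was analysed here, so stimulation and culture cannot be told apart either. The sources used here do not say whether replicates came from separate mice or pools, so p-values measure only the spread between these samples, which may be technical.

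AP-1 is a family of basic leucine zipper proteins that bind DNA as dimers, mostly a Fos or Batf protein with a Jun protein, or Jun proteins with each other. Many of its genes are early response genes, which are switched on within minutes of a signal through the antigen receptor, CD40 or stress, through MAP kinases and serum response factor, and many are switched off again soon after. In B cells Batf pairs with Jun proteins and with Irf4 or Irf8 and is needed for antibody class switching, and Atf3 is a stress-induced relative that can pair with Jun proteins.

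Signals are given on the log2 scale as deposited, where a difference of 1 is a doubling and 2.15 is the floor, the lowest value on every array. Array medians ran from 2.39 to 2.86, and 36.8% to 43.1% of the probe sets of an array lay at the floor. A probe set's signal also depends on its sequence, so levels are compared between groups for a gene and never between genes. In sorted but mixed cell samples, fewer cells with a transcript and less transcript per cell cannot be told apart. Apart from memory cells, the markers of the sorted types were highest in the group of that label. This held for the follicular marker Fcer2a and for the summed marginal zone, germinal center and plasma cell lists. The summed linear signal of the memory list was 3790 to 4570 in day 40 germinal center cells. It was 4480 to 5010 in day 40 and 2590 to 3580 in day 7 memory cells. Of its 3 genes tested, 2 were called lower and 1 higher in germinal center than in memory cells of day 40. Their median log2 change was -3.78. Genes of myeloid cells were read as well. The summed linear signal of 13 such genes was 1920 to 2410 in follicular, 191 to 977 in stimulated, 11400 to 15900 in marginal zone, 9090 to 27100 in day 7 memory and 4750 to 14700 in day 40 memory cells. It was 1210 to 1960 in day 7 germinal center cells and 1060 to 23500 in day 40 germinal center cells, where replicate 1 stood alone, and 44100 to 59100 in plasma cells. Day 7 memory replicate 1 stood apart: it held the myeloid sum of 27100, against 10800 and 9090 in replicates 2 and 3, and its germinal center markers had a mean log2 signal of 10.52, against 5.17 and 5.82. Without it 5 members were called between day 7 memory and follicular cells, as many as with it, and 4 in place of 5 both between day 7 germinal center and memory cells and between plasma and memory cells. The last 2 counts were also 4 without day 7 memory replicate 2, plasma replicate 2 or plasma replicate 3. Their drop was thus not particular to day 7 memory replicate 1. The T cell marker Bcl11b was called higher in stimulated than in follicular cells, with summed signals of the T cell list of 176 to 976 and 27.7 to 65.8, and the T cell markers Cd4 and Cd8a and the NK cell marker Gzma were called higher in plasma cells. In plasma cells 10 of the 13 myeloid genes were above the array median on every array, Lyz2, S100a8 and S100a9 among them, while Adgre1 and Itgam lay at background, at or below the array median on each array. The part of these markers in the results was not tested.

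Against follicular B cells, most of the 8 genes rose in memory and in plasma cells, and stimulated cells differed in both directions. A change was called when its adjusted p (limma, Benjamini-Hochberg over all genes tested) was under 0.05 and its size at least 1 on the log2 scale. In day 7 memory cells Fosb, Fosl2, Junb, Batf and Atf3 rose, 5 of 8, where 9.18% of all genes tested were called higher. In day 40 memory cells 7 of 8 rose, all but Jund, where 7.23% of all genes were called higher. The median change of the 8 was 2.98 on the log2 scale in that comparison, beside -0.04 over all genes tested. In day 7 germinal center cells Fosb and Atf3 rose, 2 of 8 beside 14.4% of all genes, and in day 40 germinal center cells Fosb, Fosl2 and Batf rose, 3 of 8 beside 16.8%. In plasma cells Fos, Fosb, Fosl2, Jun and Atf3 rose, 5 of 8 beside 20.3%, and Batf fell, 1 of 8 beside 22.4% called lower. In marginal zone cells Junb fell, 1 of 8 beside 3.83% called lower, and the other 7 were not called. In stimulated follicular cells Fosl2 and Batf rose, 2 of 8 beside 16.9%, while Fos, Jun and Junb fell, 3 of 8 beside 22.5%. These comparisons share the 3 follicular arrays, so their results are not independent of each other.

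**Figure D1:**
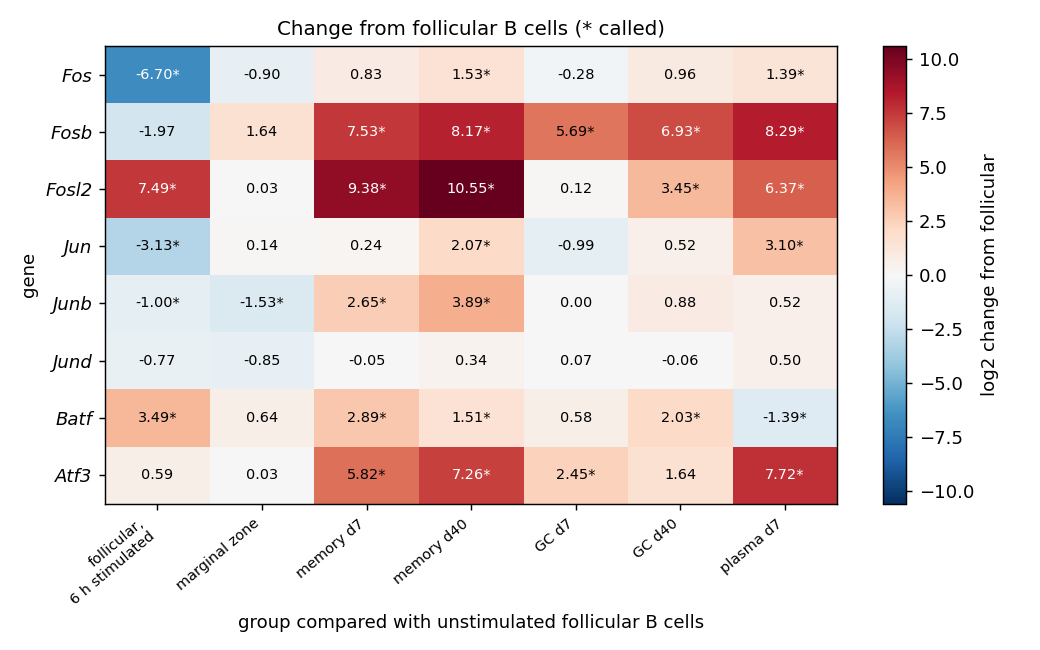
Log2 change from unstimulated follicular B cells (difference of means, 3 arrays per group) for the 8 genes in rows and 7 groups in columns; the colour gives the size, and a star marks an adjusted p under 0.05 with a change of at least 1. Fosb and Atf3 are starred in day 7 germinal center, plasma and both memory columns, and the stimulated column holds the decreases of Fos (-6.70) and Jun (-3.13) beside the increases of Fosl2 (7.49) and Batf (3.49).

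The start regions of 6 of the genes are shown in pairs, by how stimulated cells differed from follicular cells. Fos and Jun are from the 3 genes that fell, Fosl2 and Batf rose, and Fosb and Atf3 are from the 3 that were not called. For Fosl2 the rise was read only by its probe set with the higher mean. Each is the 250 bases before the transcription start in RefSeq (build GRCm38.p6), read 5′ to 3′ on the gene's own strand, with the start following the last base. Fos lies on the plus strand at chr12:85473640-85473889, Jun on the minus strand at chr4:95052223-95052472, Fosl2 on the plus strand at chr5:32136222-32136471, Batf on the plus strand at chr12:85686470-85686719, Fosb on the minus strand at chr7:19310046-19310295 and Atf3 on the minus strand at chr1:191183334-191183583. Capitals mark TGACG, the core of the cAMP response element that ATF and CREB proteins bind, on either strand (CGTCA when reversed), and, in Jun, TGACATCA, a form bound by Jun and ATF dimers.
Fos: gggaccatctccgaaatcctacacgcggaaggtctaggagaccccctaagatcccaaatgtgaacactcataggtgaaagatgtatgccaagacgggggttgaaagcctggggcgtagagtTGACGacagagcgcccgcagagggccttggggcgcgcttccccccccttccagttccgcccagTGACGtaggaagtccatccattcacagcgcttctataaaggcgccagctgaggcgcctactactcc
Jun: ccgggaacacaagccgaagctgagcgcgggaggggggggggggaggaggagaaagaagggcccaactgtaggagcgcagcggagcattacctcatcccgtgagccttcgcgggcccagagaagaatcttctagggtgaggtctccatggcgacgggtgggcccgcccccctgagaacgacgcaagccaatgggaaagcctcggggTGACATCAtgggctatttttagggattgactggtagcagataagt
Fosl2: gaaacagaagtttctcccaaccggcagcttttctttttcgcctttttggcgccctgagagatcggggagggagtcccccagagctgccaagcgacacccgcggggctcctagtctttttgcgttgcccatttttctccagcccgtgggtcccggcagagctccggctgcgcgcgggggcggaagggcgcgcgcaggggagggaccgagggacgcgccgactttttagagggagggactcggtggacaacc
Batf: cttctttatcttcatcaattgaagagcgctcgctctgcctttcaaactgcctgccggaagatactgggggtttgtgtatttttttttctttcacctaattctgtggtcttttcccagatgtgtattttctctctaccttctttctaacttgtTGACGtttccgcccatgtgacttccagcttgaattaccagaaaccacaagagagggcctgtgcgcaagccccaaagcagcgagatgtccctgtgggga
Fosb: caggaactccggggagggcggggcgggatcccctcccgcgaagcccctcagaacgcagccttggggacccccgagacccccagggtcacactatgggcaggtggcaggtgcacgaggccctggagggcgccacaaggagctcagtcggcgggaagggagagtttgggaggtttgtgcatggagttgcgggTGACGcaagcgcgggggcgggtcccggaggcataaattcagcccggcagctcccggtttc
Atf3: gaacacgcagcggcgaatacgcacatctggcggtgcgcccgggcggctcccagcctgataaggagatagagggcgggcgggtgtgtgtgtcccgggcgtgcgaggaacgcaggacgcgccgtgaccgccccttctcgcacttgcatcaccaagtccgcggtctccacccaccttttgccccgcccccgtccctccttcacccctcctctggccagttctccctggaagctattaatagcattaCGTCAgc
TGACG occurred in 5 of the 8 genes, with the match nearest the start 66 bases before it in Fos, 98 in Batf, 60 in Fosb, 106 in Junb and 7 in Atf3, and in 17.8% of 32851 such windows of 27025 genes. The longer TGACGT, which overlaps it, occurred in Fos, Batf and Atf3, 3 of 8, and in 6.47% of the windows. TGACATCA occurred in Jun, 45 bases before the start, and in 2.93% of the windows. TGANTCA, the classical AP-1 site, occurred in 6.75% of the windows, and the CArG box, the serum response factor site, in 1.47%. Neither string of letters was in the window of a member. Sequence further from the start was not searched, so this absence holds for these 250 bases only. A match is a description of the letters and not of a bound site. Fos and Batf lie near each other on chromosome 12, and the protein-coding gene that RefSeq lists between them is Jdp2, another AP-1 gene.

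**Figure D2:**
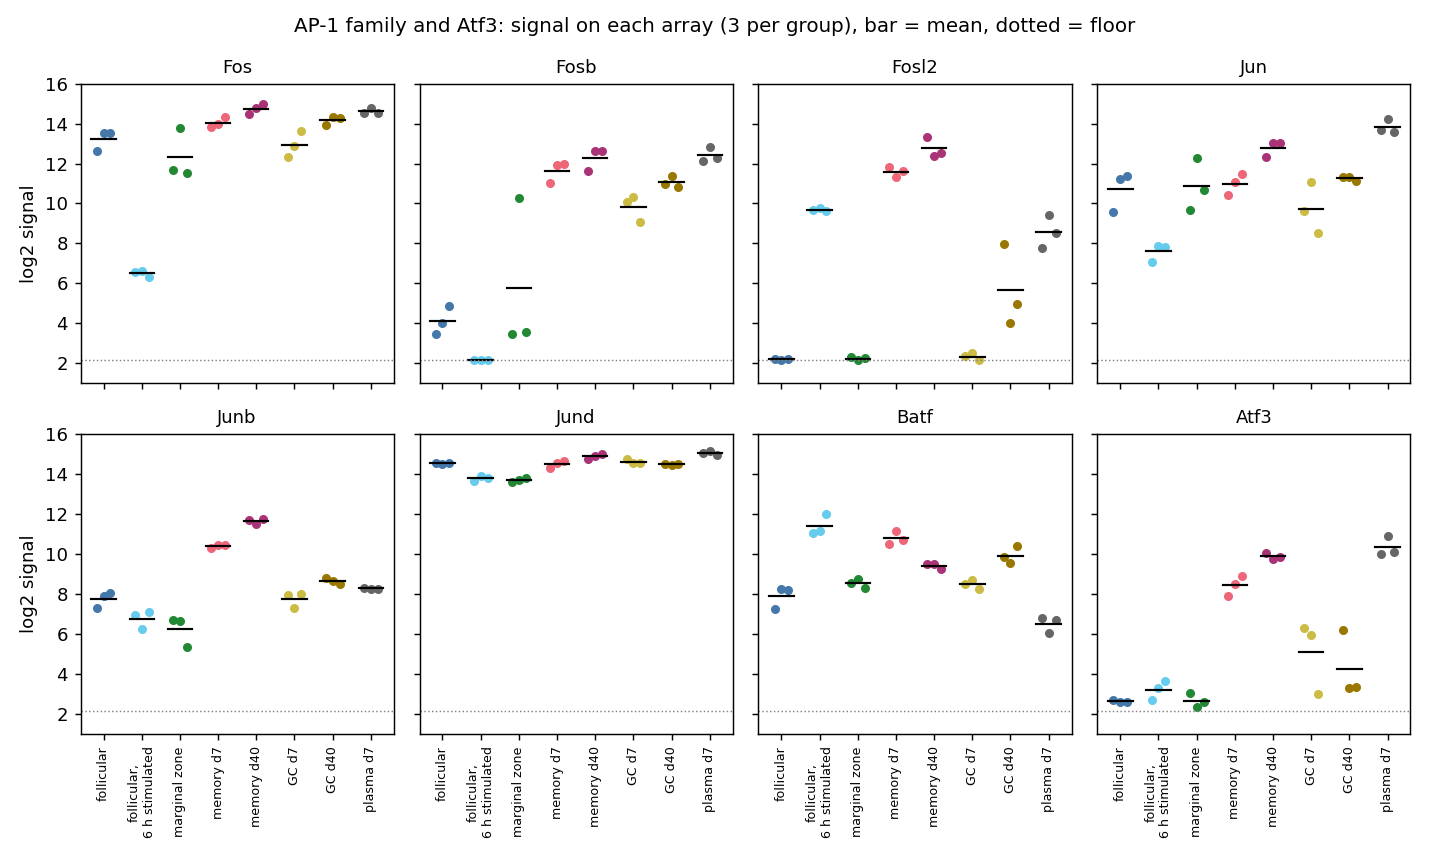
Log2 signal of the 8 genes on each of the 24 arrays (points, 3 per group), with the group mean as a bar and the floor of 2.15 as a dotted line; each panel is a gene and each column a group. Fosl2 lies at or below 2.49 in follicular, marginal zone and day 7 germinal center cells and at 11.31 or higher in both memory groups, while Jund stays between 13.62 and 15.17 on all arrays.

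Fos, the founding partner of Jun, had a high signal on every array except those of stimulated cells. Its signal was 12.61, 13.53 and 13.52 in follicular cells and 6.59, 6.64 and 6.34 in stimulated cells. The groups did not overlap, and Fos fell by 6.70 ± 0.43 (SE, n = 3; adjusted p = 2.29e-10), a 104-fold difference. In memory cells the signal was 13.82, 13.99 and 14.35 at day 7 and 14.49, 14.77 and 14.98 at day 40. Both sets of memory arrays lay above the follicular ones, by 0.83 ± 0.43 at day 7, which was not called (adjusted p = 0.156), and by 1.53 ± 0.43 at day 40 (adjusted p = 0.0146). Plasma cells read 14.54, 14.79 and 14.51 and were higher than follicular cells by 1.39 ± 0.43 (adjusted p = 0.00917). These last increases depend on follicular replicate 1, the lowest array of that group: without it they were 1.22 (adjusted p = 0.0791) for day 40 memory cells and 1.09 (adjusted p = 0.0558) for plasma cells, and without day 40 memory replicate 3 the former was 1.41 (adjusted p = 0.0523). Germinal center cells read 12.34, 12.88 and 13.61 at day 7 and 13.92, 14.35 and 14.27 at day 40, and neither group was called against follicular cells. In marginal zone cells Fos read 11.69, 13.76 and 11.51, so replicate 2 stood above the others. Without that array the change from follicular cells went from -0.90 (adjusted p = 0.189) to -1.62 (adjusted p = 0.00119).

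Fosb, a close relative of Fos with the same partners, was low in naive cells and high in every group of immunized mice. In follicular cells it read 3.48, 4.01 and 4.88, and in stimulated cells it stood at the floor of 2.15 on all 3 arrays. The fitted difference of -1.97 ± 1.12 was not called (adjusted p = 0.144), although the arrays did not overlap. Marginal zone cells read 3.48, 10.26 and 3.54, so replicate 2 alone was high. The SD of that group was 3.90, and without replicate 2 the difference between stimulated and follicular cells had an adjusted p of 2.70e-04. In memory cells Fosb read 11.01, 11.95 and 11.99 at day 7 and 11.62, 12.63 and 12.64 at day 40. The increases over follicular cells were 7.53 ± 1.12 (adjusted p = 4.25e-05) and 8.17 ± 1.12 (adjusted p = 2.31e-05), 184-fold and 289-fold. Germinal center cells read 10.08, 10.32 and 9.05 at day 7 and 10.97, 11.36 and 10.82 at day 40. They exceeded follicular cells by 5.69 ± 1.12 (adjusted p = 3.22e-04) and 6.93 ± 1.12 (adjusted p = 3.95e-05). Plasma cells read 12.15, 12.82 and 12.28, higher than follicular cells by 8.29 ± 1.12 (adjusted p = 3.25e-06). All arrays of the 5 groups from immunized mice lay above the highest follicular array, which read 4.88.

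Fosl2, which encodes Fra-2, showed the largest range of group means of the 8 genes, 10.55. In follicular cells it read 2.23, 2.15 and 2.23, in marginal zone cells 2.30, 2.15 and 2.26, and in day 7 germinal center cells 2.34, 2.49 and 2.15. The follicular and marginal zone arrays each lay at or below their own array median, so changes from these groups are lower bounds, and of the day 7 germinal center arrays replicate 2, at 2.49, lay just above its array median of 2.48. In memory cells it read 11.81, 11.31 and 11.64 at day 7 and 13.34, 12.38 and 12.55 at day 40. The increases over follicular cells were at least 9.38 ± 0.63 (adjusted p = 1.82e-09) and at least 10.55 ± 0.63 (adjusted p = 5.39e-10). Stimulated follicular cells read 9.66, 9.79 and 9.64, higher than unstimulated ones by at least 7.49 ± 0.63 (adjusted p = 7.90e-09). Plasma cells read 7.78, 9.42 and 8.53, higher than follicular cells by at least 6.37 ± 0.63 (adjusted p = 5.25e-08). Day 40 germinal center cells read 7.96, 4.02 and 4.97, and replicate 1 was the highest of them. That replicate was also the array with a myeloid list sum of 23500, where replicates 2 and 3 had 1130 and 1060. Without it the increase over follicular cells went from 3.45 (adjusted p = 1.35e-04) to 2.29 (adjusted p = 4.70e-05).

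The probe sets of Fosl2 did not give the same picture. The second one, 1422931_at, read 7.88, 9.27 and 8.30 in day 7 memory cells and 8.39, 9.58 and 7.83 in day 40 memory cells. In all other groups it stayed at 2.53 or lower, stimulated and plasma cells included. With it the increases of memory over follicular cells were 6.32 at day 7 (adjusted p = 5.33e-11) and 6.44 at day 40 (adjusted p = 4.85e-11). The change in stimulated cells was 0.12 (adjusted p = 0.820), that in day 40 germinal center cells was 0.12 (adjusted p = 0.816) and that in plasma cells was 0 (adjusted p = 1), where the probe set with the higher mean, 1437247_at, gave 7.49, 3.45 and 6.37. The high signal in memory cells was thus read by both probe sets, and those in stimulated, plasma and day 40 germinal center cells by 1437247_at alone.

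**Figure D3:**
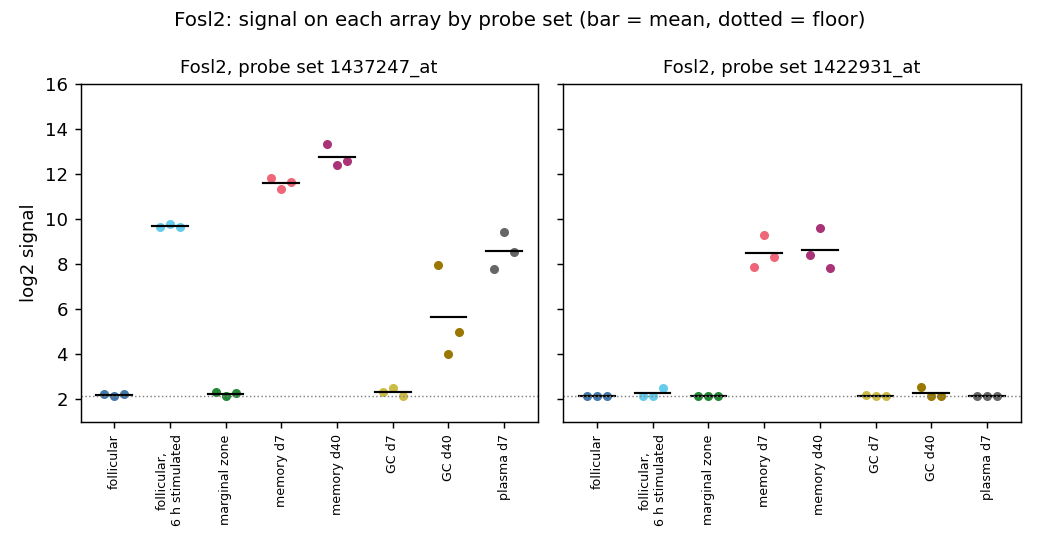
Log2 signal of Fosl2 on each array by group for the probe set with the higher mean (left) and the other (right); points are arrays, bars are means of 3 and the dotted line is the floor of 2.15. Both panels are high in the memory groups, and the stimulated and plasma arrays, at 9.64 to 9.79 and 7.78 to 9.42 on the left, lie near the floor on the right.

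Jun, the dimer partner of the Fos proteins, was highest in plasma cells and lowest in stimulated cells. It read 9.59, 11.22 and 11.38 in follicular cells and 7.09, 7.89 and 7.81 in stimulated cells. The groups did not overlap, and Jun fell by 3.13 ± 0.62 (adjusted p = 2.76e-04). Plasma cells read 13.70, 14.21 and 13.59, above every array of every other group, and exceeded follicular cells by 3.10 ± 0.62 (adjusted p = 2.53e-04). The second probe set of Jun moved the same way in both comparisons, by -5.72 (adjusted p = 2.30e-06) and 3.87 (adjusted p = 1.56e-04). Memory cells read 10.40, 11.06 and 11.46 at day 7, which overlapped with follicular cells, and 12.32, 13.02 and 13.05 at day 40. The day 40 increase of 2.07 ± 0.62 (adjusted p = 0.0207) had an adjusted p of 0.119 without follicular replicate 1, 0.0674 without day 40 memory replicate 2 and 0.0628 without its replicate 3. Marginal zone cells read 9.66, 12.30 and 10.65, with replicate 2 again the highest. Germinal center cells read 9.62, 11.07 and 8.52 at day 7 and 11.30, 11.32 and 11.13 at day 40, and both groups overlapped with follicular cells. Without day 7 germinal center replicate 2, the day 7 difference went from -0.99 (adjusted p = 0.204) to -1.66 (adjusted p = 0.0360).

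Junb, a Jun protein that is often a weaker activator than Jun, set both memory groups apart from all others. It read 10.30, 10.46 and 10.45 in day 7 memory cells and 11.70, 11.50 and 11.74 in day 40 memory cells. No array of another group passed 8.78, the highest day 40 germinal center array. Follicular cells read 7.29, 7.92 and 8.06, and memory cells were higher by 2.65 ± 0.30 at day 7 (adjusted p = 1.85e-06) and by 3.89 ± 0.30 at day 40 (adjusted p = 1.64e-08). These are 6.26-fold and 14.8-fold differences. Marginal zone cells read 6.69, 6.63 and 5.35, all below follicular cells, and Junb fell by 1.53 ± 0.30 (adjusted p = 9.89e-04). A fit of those groups alone gave the same change with an adjusted p of 0.0808. Stimulated cells read 6.94, 6.23 and 7.10, also all below. That change was -1.0 ± 0.30 (adjusted p = 0.00793), at the minimum size for a call, and it was -0.92 without follicular replicate 2, -0.85 without follicular replicate 3 and -0.74 (adjusted p = 0.0579) without stimulated replicate 2. Quantile normalization, chosen as an alternative scaling, gave -0.56 (adjusted p = 0.116). Day 7 germinal center cells (7.97, 7.32 and 7.98) had the same mean as follicular cells. Plasma cells read 8.30, 8.26 and 8.27, and the day 40 germinal center arrays 8.78, 8.63 and 8.49, with changes from follicular cells of 0.52 and 0.88 that were not called. Without follicular replicate 3 the latter was 1.03 (adjusted p = 0.0172).

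Jund, the broadly expressed Jun protein, varied least. Its signal ran from 13.62 to 15.17 over all 24 arrays, and its group means spanned 1.35. It was lowest in marginal zone cells (13.62, 13.72 and 13.78) and stimulated cells (13.63, 13.92 and 13.81), where follicular cells read 14.57, 14.52 and 14.57. The changes of -0.85 ± 0.11 (adjusted p = 1.32e-05) and -0.77 ± 0.11 (adjusted p = 8.92e-06) stayed under the minimum size for a call, although no arrays overlapped. Plasma cells read 15.04, 15.17 and 14.96, above follicular cells by 0.50 ± 0.11 (adjusted p = 6.21e-04). The second probe set of Jund stayed at or below 2.20 on all arrays and carries no information on the gene.

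Batf followed another order, with stimulated cells highest and plasma cells lowest. It read 11.03, 11.14 and 12.00 in stimulated cells and 7.23, 8.25 and 8.21 in follicular cells, a rise of 3.49 ± 0.31 (adjusted p = 1.46e-08), 11.3-fold. Plasma cells read 6.79, 6.03 and 6.70, all below follicular cells, and Batf fell by 1.39 ± 0.31 (adjusted p = 6.28e-04). Memory cells read 10.51, 11.16 and 10.70 at day 7 and 9.51, 9.48 and 9.23 at day 40, above follicular cells by 2.89 ± 0.31 (adjusted p = 8.32e-07) and 1.51 ± 0.31 (adjusted p = 0.00120). Germinal center cells read 8.51, 8.68 and 8.25 at day 7 and 9.83, 9.55 and 10.39 at day 40. The day 7 arrays lay 0.58 ± 0.31 from the follicular mean and were not called (adjusted p = 0.126), and the day 40 arrays were higher by 2.03 ± 0.31 (adjusted p = 1.83e-05). Marginal zone cells read 8.54, 8.77 and 8.31, all just above the follicular arrays, and were not called (adjusted p = 0.182).

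Atf3, induced by many kinds of stress, was near the floor in naive cells. It read 2.68, 2.59 and 2.59 in follicular, 3.03, 2.32 and 2.59 in marginal zone and 2.70, 3.29 and 3.64 in stimulated cells. The difference between stimulated and follicular cells, 0.59 ± 0.72, was not called (adjusted p = 0.524, 95% interval -0.92 to 2.10). It read 7.91, 8.48 and 8.92 in day 7 memory cells, 10.05, 9.75 and 9.84 in day 40 memory cells and 10.00, 10.91 and 10.10 in plasma cells. These groups exceeded follicular cells by 5.82 ± 0.72 (adjusted p = 5.06e-06), 7.26 ± 0.72 (adjusted p = 4.16e-07) and 7.72 ± 0.72 (adjusted p = 2.38e-08). Germinal center cells were uneven, with 6.28, 5.94 and 2.99 at day 7 and 6.18, 3.29 and 3.32 at day 40. The day 7 difference of 2.45 ± 0.72 (adjusted p = 0.00791) had an adjusted p of 0.0550 without day 7 germinal center replicate 1 and of 0.0914 in a fit of those groups alone. The day 40 difference of 1.64 ± 0.72 (adjusted p = 0.0641) was called without day 40 replicate 2 (2.13, adjusted p = 0.0332), without its replicate 3 (2.12, adjusted p = 0.0347) and without day 7 replicate 3 (1.64, adjusted p = 0.0165). The high array at day 40 was replicate 1, the array with the high myeloid list.

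With the 8 groups ordered by mean for each gene, 40 of the 56 neighbouring pairs were not separated at an adjusted p of 0.05 and 16 were. Fos had 1 break, between marginal zone and stimulated cells (5.80 ± 0.43, adjusted p = 1.56e-09), and no neighbouring step among the other 7 groups was separated. Groups further apart in the order could be, such as marginal zone minus day 40 memory cells (-2.43 ± 0.43, adjusted p = 2.83e-04). Over all 28 pairs of groups, 16 were separated for Fos. Fosb also had 1, between day 7 germinal center and marginal zone cells (4.06 ± 1.12, adjusted p = 0.00502), and Atf3 had 1, between day 7 memory and day 7 germinal center cells (3.37 ± 0.72, adjusted p = 9.48e-04). Fosl2 was ordered day 40 memory, day 7 memory, stimulated, plasma, day 40 germinal center, day 7 germinal center, marginal zone and follicular cells. The places of stimulated, plasma and day 40 germinal center cells rest on its probe set with the higher mean alone. The steps between both memory groups and between stimulated and plasma cells were not separated (adjusted p = 0.272 and 0.124). Neither was the step from day 7 germinal center to marginal zone cells (0.09 ± 0.63, adjusted p = 0.952). The step from marginal zone to follicular cells (0.03 ± 0.63) was not separated either, and all of these groups lay near the floor. Jun broke between day 40 memory and day 40 germinal center cells (adjusted p = 0.0484) and between day 7 germinal center and stimulated cells (adjusted p = 0.00617). Junb broke on both sides of day 7 memory cells (adjusted p = 0.0118 and 8.28e-05) and between day 7 germinal center and stimulated cells (adjusted p = 0.00746). Jund broke between day 40 memory and day 7 germinal center cells (adjusted p = 0.0495) and between day 40 germinal center and stimulated cells (adjusted p = 2.07e-05). Batf ran from stimulated through day 7 memory, day 40 germinal center, day 40 memory, marginal zone, day 7 germinal center and follicular to plasma cells, with breaks after day 7 memory (adjusted p = 0.0271), day 40 memory (adjusted p = 0.0381) and follicular cells (adjusted p = 6.28e-04).

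Between the days, Junb and Batf were the members called in memory cells, in opposite directions. From day 7 to day 40 Junb rose by 1.24 ± 0.30 (adjusted p = 0.0118), 1 of 8 beside 2.74% of all genes called higher, and Batf fell by 1.38 ± 0.31 (adjusted p = 0.00681), 1 of 8 beside 2.28% called lower. Arrays of the days did not overlap for either gene. Batf was the only member with a lower mean at day 40. The median change of the 8 was 0.93, beside 0 over all genes. Jund was 0.40 ± 0.11 higher with no overlap (adjusted p = 0.0282), under the minimum size for a call. Atf3 was 1.44 ± 0.72 higher, also with no overlap, and was not called (adjusted p = 0.229). Jun was 1.82 ± 0.62 higher at day 40, with no overlap, and was not called (adjusted p = 0.0722). It passed without day 7 germinal center replicate 2 (adjusted p = 0.0453), its replicate 3 (0.0477) or marginal zone replicate 2 (0.0395). Fosl2 was 1.17 ± 0.63 higher (adjusted p = 0.272), and passed without day 40 germinal center replicate 1 (adjusted p = 0.0298). In germinal center cells Fosl2 rose by 3.32 ± 0.63 (adjusted p = 0.00147) and Batf by 1.44 ± 0.31 (adjusted p = 0.00408), 2 of 8 beside 3.58% of all genes called higher. Day 7 germinal center arrays of Fosl2 lay near the floor, at 2.15 to 2.49. Without day 40 germinal center replicate 1 the rise of Fosl2 was 2.17 (adjusted p = 6.27e-04), with its second probe set it was 0.13 (adjusted p = 0.969), and a fit of those groups alone gave an adjusted p of 0.165. Fos and Jun were 1.24 ± 0.43 (adjusted p = 0.0924) and 1.51 ± 0.62 (adjusted p = 0.167) higher at day 40 and were not called. Fos passed without day 7 germinal center replicate 3 (1.57, adjusted p = 0.0490) or marginal zone replicate 2 (adjusted p = 0.00756), and Jun without day 7 germinal center replicate 2 (2.18, adjusted p = 0.0377).

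Against memory cells of the same day, Fosl2, Junb and Atf3 were lower in germinal center cells on both days. At day 7 Fosl2 was lower by 9.26 ± 0.63 on the log2 scale (change -9.26, adjusted p = 1.91e-09). Its germinal center arrays lay near the floor, at 2.15 to 2.49, so this size may be understated. Junb was lower by 2.65 ± 0.30 (change -2.65, adjusted p = 1.46e-06), Batf changed by -2.31 ± 0.31 (adjusted p = 9.54e-06) and Atf3 by -3.37 ± 0.72 (adjusted p = 9.48e-04, or 0.0588 in a fit of those groups alone). With Fos, 5 of 8 fell, beside 12.1% of all genes called lower. The change of Fos, -1.11 ± 0.43 (adjusted p = 0.0475), lay close to the threshold and was lost in 21 of 36 alternatives, at -0.81 (adjusted p = 0.206) without day 7 germinal center replicate 1 and -0.96 (adjusted p = 0.148) without day 7 memory replicate 3. Fosb changed by -1.83 ± 1.12 (adjusted p = 0.215) and had an adjusted p of 9.41e-04 without marginal zone replicate 2. Jun changed by -1.24 (adjusted p = 0.125) and by -1.90 (adjusted p = 0.0232) without day 7 germinal center replicate 2. At day 40 Fosl2 changed by -7.11 ± 0.63 (adjusted p = 3.92e-08), Junb by -3.01 ± 0.30 (adjusted p = 1.78e-07), Atf3 by -5.62 ± 0.72 (adjusted p = 3.67e-06) and Jun by -1.55 ± 0.62 (adjusted p = 0.0484), 4 of 8 beside 12.7%. The change of Jun was lost in 17 of 36 alternatives, with adjusted p up to 0.122, the value without day 40 memory replicate 3. Fosb changed by -1.25 ± 1.12 (adjusted p = 0.408), and by the same amount with an adjusted p of 0.0124 without marginal zone replicate 2. Batf was 0.52 ± 0.31 higher in germinal center cells at day 40 and was not called (adjusted p = 0.185).

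The germinal center minus memory difference was set against itself between the days with an interaction term. For Batf it moved from -2.31 at day 7 to 0.52 at day 40, a difference of 2.83 ± 0.43 (adjusted p = 3.16e-04), 1 of 8 beside 2.92% of all genes called higher. Memory cells were the higher at day 7, and at day 40 germinal center cells lay above them by an amount that was not called. The differences for Fosl2 (2.15 ± 0.89, adjusted p = 0.183), Atf3 (-2.25 ± 1.01, adjusted p = 0.231) and the other members were not called. Fosl2 passed without day 40 germinal center replicate 2 (2.97, adjusted p = 0.0312). Atf3 passed without day 7 germinal center replicate 3 (-3.29, adjusted p = 0.0209) or day 40 germinal center replicate 1 (-3.21, adjusted p = 0.0388).

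**Figure D4:**
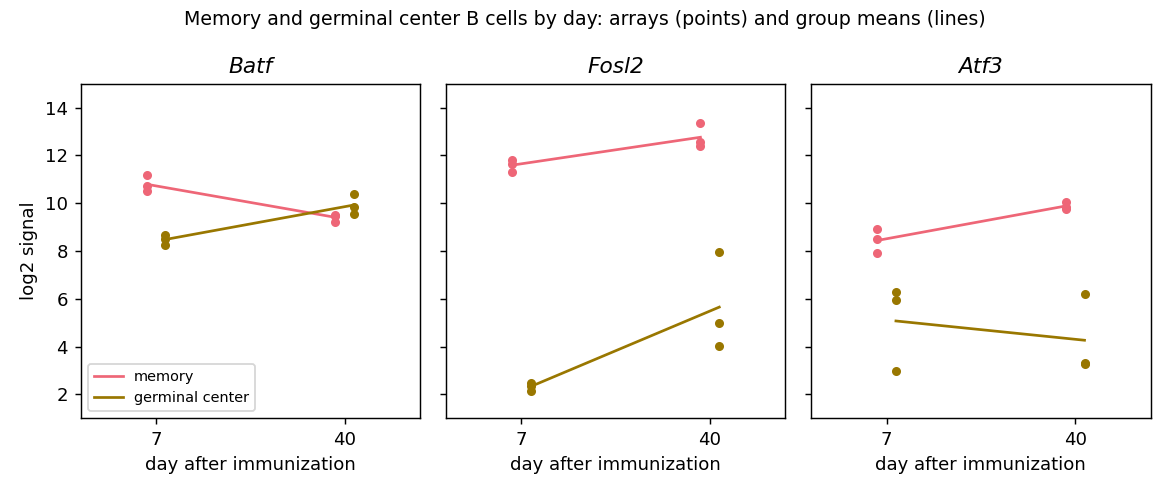
Log2 signal of Batf, Fosl2 and Atf3 against the day after immunization in memory and germinal center B cells; points are arrays and lines join the means of 3. The lines of Batf cross, with memory cells at 10.79 and germinal center cells at 8.48 on day 7 and at 9.41 and 9.92 on day 40, while memory cells stay the higher in both other panels.

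Plasma cells shared a day with memory and germinal center cells of day 7. Against memory cells Jun rose by 2.86 ± 0.62 (adjusted p = 6.63e-04) and Atf3 by 1.90 ± 0.72 (adjusted p = 0.0316), 2 of 8 beside 17.9% of all genes called higher. Fosl2 changed by -3.01 ± 0.63 (adjusted p = 4.50e-04), Junb by -2.13 ± 0.30 (adjusted p = 6.41e-06) and Batf by -4.28 ± 0.31 (adjusted p = 7.59e-10), 3 of 8 beside 18.7% called lower. The share of members that rose was near that of all genes. The second probe set of Fosl2 gave -6.32 (adjusted p = 7.04e-12). The rise of Atf3 was not called without plasma replicate 2 (1.61, adjusted p = 0.109), plasma replicate 3 (adjusted p = 0.0506), day 7 memory replicate 1 (adjusted p = 0.101) or day 7 memory replicate 2 (adjusted p = 0.0628). Against germinal center cells Fos rose by 1.67 ± 0.43 (adjusted p = 0.00285), Fosl2 by 6.25 ± 0.63 (adjusted p = 8.67e-08), Jun by 4.10 ± 0.62 (adjusted p = 1.53e-05) and Atf3 by 5.27 ± 0.72 (adjusted p = 4.35e-06), 4 of 8 beside 18.1%. Germinal center arrays of Fosl2 lay near the floor, at 2.15 to 2.49, so the size of its change may be understated. The second probe set of Fosl2 gave 0.0033 (adjusted p = 1). Batf changed by -1.97 ± 0.31 (adjusted p = 1.99e-05), 1 of 8 beside 20.1% called lower. Fosb was 2.60 ± 1.12 higher (adjusted p = 0.0563), and passed without marginal zone replicate 1 (adjusted p = 0.0372), replicate 2 (1.51e-05) or replicate 3 (0.0385). The myeloid list sum was 44100 to 59100 in these plasma cells, as given above.

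Memory cells and stimulated follicular cells differed in most of the family. At day 7 Fos, Fosb, Fosl2, Jun, Junb and Atf3 were higher in memory cells, 6 of 8 beside 23.2% of all genes. Fos was higher by 7.53 ± 0.43 (adjusted p = 3.79e-11), and Fosb by at least 9.50 ± 1.12 (adjusted p = 6.58e-07), with stimulated cells at the floor. Fosl2 was higher by 1.89 ± 0.63 (adjusted p = 0.0141), by 6.21 with its second probe set (adjusted p = 1.10e-11) and by 1.84 with array weights, which was not called (adjusted p = 0.0749). Batf arrays overlapped, with a difference of -0.60 ± 0.31 (adjusted p = 0.0986; 95% interval -1.24 to 0.04). At day 40 all 8 were called. The 7 others were higher, beside 23.7%, among them Jund by 1.11 ± 0.11 (adjusted p = 7.56e-08), or 0.56 with the mean of its probe sets, and Batf was lower, with a change of -1.98 ± 0.31 (adjusted p = 1.76e-05), beside 19.5% called lower.

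Relatives of the AP-1 genes in the same bZIP class included some of the larger changes. Of 12 tested, 5 rose and 2 fell in day 7 memory cells against follicular cells, beside 9.18% and 9.23% of all genes, and 5 rose and 1 fell in day 40 memory cells, beside 7.23% and 6.55%. Nfil3, a bZIP repressor, rose by 10.59 ± 0.29 and 10.77 ± 0.29 (adjusted p = 3.64e-15 and 2.81e-15). Jdp2, a repressor that pairs with Jun proteins and lies between Fos and Batf, rose by 6.67 ± 0.40 and 6.33 ± 0.40 (adjusted p = 3.89e-10 and 1.18e-09). Jdp2 was also higher in stimulated cells, by 4.17 ± 0.40 (adjusted p = 4.62e-08), where Fos fell and Batf rose. The median change of this list in day 7 memory cells was 0.51, beside -0.04 over all genes. In plasma cells 4 rose and 3 fell, beside 20.3% and 22.4% of all genes, and Bach2, which restrains plasma cell formation and competes with AP-1 at its sites, fell by 5.20 ± 0.36 (adjusted p = 3.41e-10).

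Of 9 ATF and CREB relatives and stress response genes, 6 rose and 1 fell in plasma cells, beside 20.3% and 22.4% of all genes, with a median change of 1.10 beside -0.05 over all genes. In memory cells 2 rose at day 7 and 3 at day 40, beside 9.18% and 7.23% of all genes called higher. In stimulated cells 4 rose, beside 16.9%. Crem, an early response repressor of the CREB family, rose by 7.65 ± 0.52 in both day 7 and day 40 memory cells (adjusted p = 2.24e-09 and 3.21e-09) and by 5.37 ± 0.52 in plasma cells (adjusted p = 4.09e-08). Of 11 MAP kinase genes tested, 1 rose in each memory group, near the 9.18% of all genes at day 7 and 7.23% at day 40. It was Map2k6, an activator of p38, which rose by 2.09 ± 0.24 and 1.81 ± 0.24 (adjusted p = 1.85e-06 and 1.29e-05). In stimulated cells 1 of the 11 rose and 3 fell, near the 16.9% and 22.5% of all genes, and Map2k6 fell by 4.97 ± 0.24 (adjusted p = 3.05e-12). Of the 6 genes for serum response factor and its partners, which drive Fos, 5 fell in plasma cells, beside 22.4% of all genes, and the median change was -1.35 beside -0.05. Of 9 nuclear partners of AP-1, 7 fell in plasma cells, beside 22.4%, among them Irf8, a partner of Batf, by 4.93 ± 0.15 (adjusted p = 2.87e-15). In stimulated cells 2 of the 9 rose and 3 fell, beside 16.9% and 22.5% of all genes, with a median change of -0.57 beside -0.02. In each memory group 2 of the 9 rose, beside 9.18% of all genes at day 7 and 7.23% at day 40.

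Early response and handling genes outside the family are known to be induced by cell isolation as well as by signals. Of 25 tested, 11 rose in day 7 memory cells and 17 in day 40 memory cells, beside 9.18% and 7.23% of all genes, with medians of 0.64 and 1.27 beside -0.04 in each case over all genes. Nr4a3, an early response nuclear receptor, rose by 9.14 ± 0.26 and 9.77 ± 0.26 (adjusted p = 7.14e-15 and 2.81e-15), and Hspa1b, an inducible heat shock protein, by 7.71 ± 0.84 and 9.66 ± 0.84 (adjusted p = 1.22e-06 and 8.40e-08). In stimulated cells 7 rose and 8 fell (16.9% and 22.5% of all genes), in day 7 germinal center cells 6 rose and 7 fell (14.4% and 16.6%) and in day 40 germinal center cells 10 rose and 5 fell (16.8% and 15.7%). In plasma cells 9 rose and 5 fell (20.3% and 22.4%), and in marginal zone cells 1 rose and 3 fell (7.21% and 3.83%). The share that fell in plasma cells was near that of all genes. The summed linear signal of all 26 was 131000 to 146000 in follicular, 109000 to 123000 in marginal zone, 192000 to 204000 in stimulated, 196000 to 269000 in day 7 memory and 296000 to 396000 in day 40 memory cells. It was 156000 to 188000 and 207000 to 209000 in germinal center cells of day 7 and day 40 and 167000 to 219000 in plasma cells. In marginal zone cells replicate 2, the array with high Fos, Fosb and Jun, was the highest of the 3 for 12 of the 26 genes. In follicular cells replicate 1, the array with the lowest Fos, Jun, Junb and Batf, was the lowest, ties left out, for 14 of the 26. That array also differed as a whole, with a median of 2.56 beside 2.42 and 2.41 and an upper quartile of 8.84 beside 9.14 and 9.1. Ier3 and Hspb1, at 2.15 on all arrays of both groups, were tied and counted for no replicate. Such counts were not made over all genes, so they cannot be called particular to this list. The part of cell isolation in the differences of the AP-1 genes was not tested.

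The 3 genes whose log2 signal was most like that of each member over the 24 arrays are given as a description, since the points share groups of 3. For Fos they were Narf (r = 0.952), Phyh (0.946) and Plaat3 (0.944), for Fosb Dusp1 (0.922), Fscn1 (0.915) and Skap2 (0.903), and for Fosl2 Nr4a2 (0.960), Apold1 (0.915) and Sqstm1 (0.898). For Jun they were Rhob (0.924), Borcs5 (0.883) and Pnrc1 (0.869), for Junb Rrad (0.950), Coq10b (0.915) and Per1 (0.899), and for Jund Zfp652 (0.915), Myadm (0.890) and Arhgap31 (0.879). For Batf they were Fnbp1 (0.920), Mrps6 (0.879) and Taf5l (0.853), and for Atf3 St8sia6 (0.927), Spsb1 (0.921) and Zbtb21 (0.911). Narf read 2.65 ± 0.01 (SD, n = 3) in stimulated cells and from 8.56 to 9.45 as means of the other groups, so its likeness to Fos rests on the stimulated arrays. Phyh and Plaat3 were also lowest in stimulated cells, with means of 7.37 and 5.69. Their means in the other groups were at least 11.01 and 10.75. Nr4a2, the gene most like Fosl2, read 3.65 ± 0.19 (SD, n = 3) in follicular cells, 12.26 ± 0.10 in day 40 memory cells and 9.84 ± 0.51 in stimulated cells. Among the members, Fos and Jun had r = 0.820 and Fos and Fosb r = 0.801, while Batf had r = -0.494 with Fos and -0.551 with Jun. Fos read 6.34 to 6.64 on the stimulated arrays and 11.51 or higher on all others, so its correlations lean on the stimulated group. In that group Jun and Fosb were lowest and Batf highest.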

How the data were processed

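Affymetrix arrays of 24 samples were used through the table of values that the authors deposited, which holds log2 signals per probe set made with GCRMA, per the submitters' processing notes; its version and any filter are not given in the sources used here. GCRMA models background from probe sequence, so dim probe sets collapse at a floor. No further normalization was applied. Per gene, the probe set annotated to 1 gene with the highest mean was kept; 11208 of 18193 genes, above the array median on at least 3 arrays, were tested. limma (3.58.1, R 4.3.3) fitted 1 model with 8 group means over all arrays, with 16 residual degrees of freedom; p-values were Benjamini-Hochberg adjusted over all genes tested, per comparison. The number of arrays limits precision, and no pair of arrays was identical. The procedure was tested on simulated data. Members and lists were chosen with earlier results of these data known. All 8 members, the 3 most correlated genes of each and up to 4 called genes per list with the largest changes were named by rule; Bcl11b, Cd4, Cd8a and Gzma were named after their values were seen. Markers of T and NK cells had summed signals up to 976 and 1330, and erythroid markers 8.88 on all arrays. Python 3.11.15 and matplotlib 3.10.9 drew the figures.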

Additional observations from a re-analysis of the deposited data

Results flagged for a closer look

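The germinal center minus memory difference of Batf was not the same on both days: it went from -2.31 at day 7 to 0.52 at day 40, and the interaction term was 2.83 ± 0.43 (limma adjusted p = 3.16e-04). Each of the 3 day 7 memory arrays lay above each day 7 germinal center array, and each day 40 germinal center array lay above each day 40 memory array. The call held in all 36 alternatives, with adjusted p from 9.67e-06 to 0.00182.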

How the results depend on the processing

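There were 36 alternatives, of which 24 left out 1 array. Of 67 called changes of the members, 50 were called under every alternative, 17 were lost under at least 1, and 4 of these only with the second probe set of Fosl2. The number of members called between germinal center cells of day 40 and day 7 (2) was 1 with the second probe set, 4 with array weights and 1 with only the compared groups fitted. In marginal zone against follicular cells (1) it was 2 with array weights and 0 with only the compared groups fitted (limma; 2 of 8 had an unadjusted p under 0.05), and in day 7 germinal center against follicular cells (2) it was 1 with only the compared groups. Leaving out each array gave 1 to 2 members in marginal zone against follicular cells (2 without marginal zone replicate 2), 1 to 3 in day 7 germinal center against follicular cells (1 without its replicate 1, 3 without its replicate 2) and 1 to 2 in the interaction (2 without day 7 germinal center replicate 3 or day 40 germinal center replicate 1 or 2). Reversed signs, all of changes that were not called, were Jund in day 7 germinal center (-0.016) and Atf3 in marginal zone cells (-0.0047) with quantile normalization, Jund in day 7 memory cells with arrays at the same median (0.01) or array weights (0.036), Jun in marginal zone cells (-0.79) and Jund between day 7 germinal center and memory cells (-0.0035) with array weights, and Fosl2 in day 7 germinal center (-0.0033) and marginal zone cells (-0.0067) with the second probe set. Leaving out each array gave, against follicular cells, Jun from -0.33 to 0.57 in day 7 memory, -0.05 to 0.84 in day 40 germinal center and -0.57 to 0.74 in marginal zone cells, Atf3 from -0.17 to 0.19 and Fosb from -0.61 to 2.78 in marginal zone cells, Jund from -0.13 to 0.047 in day 7 memory cells and Fos from -0.61 to 0.025 in day 7 germinal center cells. The interaction of Jun ranged from -0.92 to 0.36. Counts over all genes that moved by more than 1.5 times were, for day 40 against day 7 memory cells (563), 366 with the stricter filter, 908 with array weights and 199 with only the compared groups, and for germinal center cells (666) 429 with the stricter filter and 425 with only the compared groups. For the interaction (555) they were 354 with the stricter filter and 975 with array weights, and for marginal zone against follicular cells (1237) 805 with the stricter filter. The cause was not tested, except that the stricter filter and the smaller fits use fewer genes and arrays. Shifting arrays to the same median moved the median of all genes by over 0.1 in every comparison with stimulated cells and in plasma against day 7 memory and germinal center cells: from -0.02 to -0.243 for stimulated against follicular cells, from 0.01 to 0.295 and 0.29 for day 7 and day 40 memory against stimulated cells, and to -0.153 and -0.177 for plasma cells. The share of higher among called genes went from 54.3% to 65.3% and from 54.9% to 65.0% in both comparisons of memory with stimulated cells. The sources used here do not say whether same-numbered replicates belong together, and the main fit did not pair them. Of 84 same-numbered pairs, 39 had a correlation of deviations over 0.1, with a median of 0.08 beside -0.03 for other numbers. Of 24 arrays, 14 were closest to their own number. Whether same-numbered arrays share a batch was not tested. With the replicate block every count of members stayed within 1.5 times, 40 neighbouring pairs not separated became 41, and Jun between memory days (1.82, adjusted p = 0.0288) and Fosb between plasma and day 7 germinal center cells (2.60, adjusted p = 0.0437) were gained. Signals near the floor limit Fosl2, Fosb and Atf3 in naive cells: with an offset of 16 added on the linear scale the increases of Fosl2 in day 40 and of Atf3 in day 7 germinal center cells over follicular cells were 1.84 and 1.33, still called.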
